A study of Mus musculus with 24 samples.

Results

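The passage from the 2-cell to the 4-cell stage was measured in mouse embryos in which the RNA of MERVL, an endogenous retrovirus of the mouse genome, had been knocked down. Of the 24 samples of the series, the 4 RNA libraries labelled MERVL-KD at the 2-cell and the 4-cell stage, 2 per stage, make up this comparison, and every row of the read count tables entered it: 55291 genes and 1035 repeat families, 56326 rows in all. The other RNA libraries, 12 with these 4 included, gave the control transition (2 control libraries per stage) and the spread for the test of the difference between the transitions. Zygotes from B6D2F1 mice, whose background the labels give as BDF2, received antisense oligonucleotides (ASOs) in the male pronucleus, a mixture of 3 ASOs against MERVL in the MERVL-KD embryos and 1 scrambled ASO in the control embryos, so that both arms had been injected. The 2-cell libraries are labelled 1.5 days post-coitum and the 4-cell libraries 2.5 days, an age that the labels also give for the 8-cell libraries, and the stages used here are those of the sample names. Each library was made from 30 embryos without zona pellucida, pooled, so a value is a mean over embryos, blastomeres and both parental genomes. In such bulk samples fewer cells that express a gene and less RNA per cell cannot be told apart. The paper checked the cleavage stage of the embryos by eye and reports that MERVL-KD embryos were delayed from 2.5 days. The 4-cell libraries therefore hold only embryos that had reached that stage, which may be an unlike part of the embryos in each arm.

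In the mouse, the large wave of zygotic transcription starts at the 2-cell stage, while RNA laid down in the oocyte is being cleared. MERVL and the genes that use its long terminal repeat (LTR) as a promoter are transcribed in that wave and are then silenced as the embryo moves to the 4-cell stage. At the same time the embryo builds up the machinery for making ribosomes, proteins and energy, and starts to express the transcription factors of the first cell lineages.

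The ASOs themselves define the knockdown and are shown with the positions from 6 to 14, which carry no 2′-MOE sugar and can recruit RNase H, in capitals:
MERVL-ASO1: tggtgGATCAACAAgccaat
MERVL-ASO2: catttGTCTGTTTAccacga
MERVL-ASO3: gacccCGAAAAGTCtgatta
Scramble-ASO: agcgcGGGTATTGAaccagg
In the GRCm38 genome, 702 sites matched MERVL-ASO1 without a mismatch and 56 more with 1 mismatch, 630 and 75 matched MERVL-ASO3, and 322 matched MERVL-ASO2 with 1 mismatch and 0 without. The scrambled ASO had 0 sites at either level. Sites of all 3 ASOs lay within 7000 bases of each other in 298 places, sites of 2 of them in 377 and a site of 1 alone in 128. One such place was on chromosome 1, plus strand, with the sites of MERVL-ASO1 at chr1:10890195-10890214, MERVL-ASO2 at chr1:10891768-10891787 and MERVL-ASO3 at chr1:10892020-10892039, and no annotated gene lay over it.

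The MERVL-KD libraries held 30450413 to 35524346 counted reads, of which 15.8% to 21.8% fell on repeat families. Levels are given in CPM, edgeR's counts relative to the library total after TMM scaling, and 3 counts, the lowest level read here, were 0.0712 to 0.0876 CPM in these libraries. The knockdown persisted over both stages: MERVL-int, the internal part of the retrovirus, took 0.157% and 0.143% of the counts at the 2-cell stage and 0.0544% and 0.0331% at the 4-cell stage of MERVL-KD embryos, against 6.33% and 6.57%, then 2.07% and 1.78%, in control embryos. The small noncoding RNA gene Gm23935 alone took 2.70% to 4.36% of the counts of a MERVL-KD library. The embryo's own markers were present at both stages, with the oocyte gene Bmp15 at 273 and 341 CPM in the 2-cell libraries and 23.4 and 23.7 CPM in the 4-cell libraries, and the embryonic gene Tfap2c at 65.2 and 55.8 and 132 and 130.2 CPM. All 37 rows of the mitochondrial genome were at 0 in every library. Markers of other cells that may travel with embryos were not all absent. The summed level of 21 cumulus and granulosa markers was 69.2 and 63.8 CPM at the 2-cell stage and 342 and 320.4 CPM at the 4-cell stage. Gja1, a gap junction gene that the embryo also uses, made up 28.4 and 22.8 CPM and then 289 and 276 CPM. Other members thus held most of the sum at the 2-cell stage, and Gja1 most of it at the 4-cell stage. Some members were not detected in every library: Ptx3 was at 0 in both 2-cell libraries and Fshr, Inhba and Cyp11a1 at 0 in 1 or more libraries. These zeros do not show that such cells were absent, since other members were detected. Of the 13 tested members 3 rose (Gja1, Foxl2 and Inhbb) and 3 fell, and the largest log2 fold change was 5.87. Where at least 10 counts were asked of every library 1 rose. The 13 blood markers, with 2 rising and 2 falling of 6 tested and Hbb-bs at 0 in all 4 libraries, summed to 10.9 and 12.2 CPM at the 2-cell stage and 22.3 and 29.7 CPM at the 4-cell stage, and the 14 sperm and testis markers, with 4 falling and 0 rising of 5 tested and Smcp at 0 in all 4 libraries, to 198 and 229 CPM at the 2-cell stage and 47.8 and 38.1 CPM at the 4-cell stage, of which Odf2 made up 192 and 224 and 44.5 and 35.1 CPM. Without the first 2-cell library 2 of the sperm markers fell, and without either 2-cell library or the second 4-cell library 1 of the blood markers rose. The part of such cells in the results was not tested.

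Between the embryos collected at these stages, a large part of the transcriptome was still exchanged without most of the MERVL RNA. Of 21519 genes tested in MERVL-KD embryos, 10683 changed between the stages (49.6%), of which 5008 rose (23.3% of those tested) and 5675 fell (26.4%), where a gene was called at an adjusted p below 0.05 (edgeR's quasi-likelihood test, Benjamini-Hochberg) and a change of at least 2-fold. The changes were large, with a median log2 fold change of 2.06 among the genes that rose and −2.44 among those that fell, and at least 4-fold in 2616 and 3732 genes. At one of the stages 278 of the genes that rose and 515 of those that fell were at 3 counts or fewer in both libraries, and with these set to their bound the 4-fold counts were 2614 and 3703 and the medians 2.06 and −2.38. Without the fold threshold 6364 genes rose and 6657 fell. The median of all genes was −0.06, and −0.24 with scaling to library size alone, under which 4393 genes rose and 6279 fell. Genes that rose took 10.4% and 9.95% of the counts in the 2-cell libraries and 32.9% and 32.1% in the 4-cell libraries, while genes that fell went from 33.7% and 34.6% to 7.03% and 6.38%.

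Small noncoding RNA genes rose in larger numbers for their class than protein-coding, long noncoding or pseudogene rows. Of 313 tested, 141 rose (45.0%) and 22 fell, with a median log2 fold change of 1.39. Against these stood 3584 rising and 4172 falling of 15303 protein-coding genes and 531 rising and 819 falling of 3067 long noncoding genes. Of 2248 pseudogenes 601 rose and 496 fell. The snoRNAs, which guide chemical modification of ribosomal and spliceosomal RNA, gave 67 rising and 2 falling of 122, the scaRNAs, which do so in Cajal bodies, 8 rising and 0 falling of 14, and the spliceosomal snRNA class 33 rising and 5 falling of 68. Of 64 miRNA genes 13 rose and 11 fell. Of 15 rRNA genes 11 rose and 0 fell (median 4.39), but ribosomal fragments had been depleted from the libraries, so these counts are of what remained. Many genes of these classes lie inside other genes, whose unspliced reads can be counted with them. Among protein-coding genes the median level per kb of exon was 1.46 CPM at the 2-cell stage and 5.64 CPM at the 4-cell stage for those that rose, and 3.17 and 0.598 CPM for those that fell. Genes that rose spanned a median of 20020 bases and genes that fell 31099 bases, against 23801 for all protein-coding genes tested.

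The genes with the smallest adjusted p included enzymes, transporters and a ribosomal protein. Isyna1 (chr8:70594373-70597290 in GRCm38), the enzyme that makes inositol phosphate from glucose phosphate, was at 20.4 and 21.7 CPM in the 2-cell libraries and 504 and 461 CPM in the 4-cell libraries of MERVL-KD embryos, a log2 fold change of 4.56 (SE 0.12, adjusted p = 4.74e-09, edgeR). Slc6a8 (chrX:73673150-73682502), the creatine transporter, was at 9.05 and 9.18 CPM and then 256 and 236 CPM, a log2 fold change of 4.80. The rule for naming genes by p took only those with both 4-cell libraries beyond both 2-cell libraries, so this separation is not a result. It held with the 4-cell libraries higher in 39.0% of all genes tested and with the 4-cell libraries lower in 43.2%. Rack1, a protein of the small ribosomal subunit, went from 24.1 and 24.6 CPM to 440.3 and 466 CPM (log2 fold change 4.26), and the ribosomal protein gene Rpl7 from 33.7 and 33.4 CPM to 541 and 521 CPM (4.02). The linker histone H1f2 rose from 23.8 and 22.7 CPM to 326 and 307 CPM, and Rflnb, a filamin regulator, from 4.84 and 4.75 CPM to 161 and 152 CPM. Gata6, a transcription factor known from the primitive endoderm of the later blastocyst, was at 3.04 and 2.66 CPM at the 2-cell stage and 143 and 128 CPM at the 4-cell stage (log2 fold change 5.61). Olfr1459, a gene of the olfactory receptor family, whose close copies can share reads, had the largest change of the 8 rising genes named by p, from 0.190 and 0.226 CPM to 83.4 and 80.1 CPM (8.64).

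Among the 8 falling genes with the smallest adjusted p were Omt2b and Oog3, known from the oocyte, and Dusp7 and Spry4, which restrain signalling. Omt2b (chr9:78327589-78329620), an oocyte-expressed gene, fell from 541 and 538 CPM to 11.9 and 11.2 CPM, a log2 fold change of −5.51 (SE 0.12, adjusted p = 4.74e-09), and Oog3, another oocyte gene of a family with close copies, fell from 961 and 888 CPM to 33.6 and 31.1 CPM (−4.80). The 8 were taken only from genes with both 4-cell libraries below both 2-cell libraries, so that order was set by the choice. Siah2, a ubiquitin ligase, went from 945 and 919 CPM to 29.7 and 33.3 CPM (−4.85). Dusp7, a phosphatase of MAP kinases, was at 927 and 954 CPM at the 2-cell stage and 49.4 and 50.2 CPM at the 4-cell stage, and Spry4, an inhibitor of receptor tyrosine kinase signalling, at 807 and 787 CPM and then 25.7 and 29.8 CPM. The stages stayed apart in each of these genes, as the rule for naming them asked. Gli3, a transcription factor of hedgehog signalling, was at 276 and 249 CPM and then 7.35 and 6.42 CPM (−5.21). C86187, a long noncoding gene, went from 3341 and 3768 CPM to 37.9 and 47.7 CPM and Fam241b from 202 and 227 CPM to 4.94 and 5.23 CPM.

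**Figure D1:**
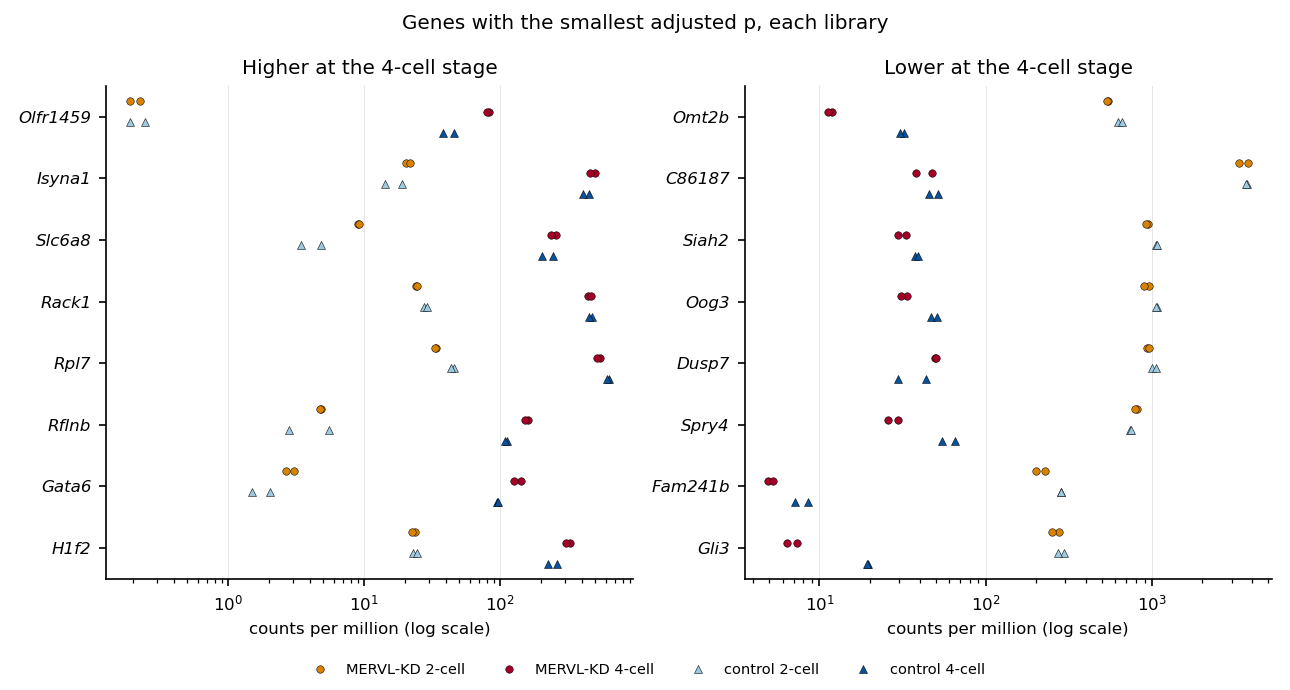
Levels of the 8 genes that rose and the 8 that fell with the smallest adjusted p in the MERVL-KD transition, on a log axis of CPM. Each point is 1 library, with circles for MERVL-KD and triangles for control embryos at both stages. The 16 genes were taken only from those with both MERVL-KD 4-cell libraries on the same side of both MERVL-KD 2-cell libraries. Olfr1459 went from 0.190 and 0.226 CPM to 83.4 and 80.1 CPM.

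The remaining MERVL RNA fell further in this step. MERVL-int was at 1323 and 1227 CPM in the 2-cell libraries and 493 and 319 CPM in the 4-cell libraries of MERVL-KD embryos, a log2 fold change of −1.61 (SE 0.17, adjusted p = 1.53e-05, edgeR). In control embryos, which started from 67631 and 74719 CPM and ended at 20309 and 17397 CPM, the log2 fold change was −1.83, and the difference between the transitions was 0.27 (adjusted p = 0.629, SE 0.23). MT2_Mm, the LTR of MERVL, was at 766 and 888 CPM and then 445 and 439.7 CPM in MERVL-KD embryos (−0.86, under the fold threshold), against 4824 and 5324 CPM and then 1459 and 1297 CPM in control embryos. MERVL_2A-int, an internal sequence of a related element, was at 119 and 103 CPM and then 96.4 and 107 CPM in MERVL-KD embryos (−0.08), where the libraries of both stages overlapped, and went from 2102 and 2263 CPM to 741 and 617 CPM in control embryos (−1.60). The difference between the transitions was 1.56 for this family (adjusted p = 3.12e-06).

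Of 762 repeat families tested in MERVL-KD embryos, 49 rose (6.43%) and 43 fell (5.64%). Among SINEs, short elements that RNA polymerase III can transcribe and that also lie in the introns and ends of many genes, 6 of 32 families rose and 1 fell (25 and 1 without the fold threshold), and together they went from 3.92% and 4.23% of all counts to 8.99% and 11.1%. B1_Mm, one of them, was at 1299 and 1374 CPM at the 2-cell stage and 6632 and 8933 CPM at the 4-cell stage (log2 fold change 2.58). The ERVK class of LTR retrotransposons, which holds the IAP and ETn elements, gave 22 rising and 13 falling of 273 families, and its share went from 0.931% and 0.821% to 1.59% and 1.70%. RLTR45-int, of this class, was at 232 and 196 CPM and then 4047 and 4913 CPM (4.43), and MMETn-int, an internal part of ETn elements, at 186 and 159.9 CPM and then 939 and 1180.0 CPM (2.65). RLTR13B1 and RLTR1B-int rose by 3.76 and 1.88 on the log2 scale.

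Of the ERVL-MaLR class, whose LTRs drive many transcripts in the oocyte, 10 of 69 families fell and 1 rose. Together these families went from 3.89% and 3.79% of the counts to 1.07% and 0.991%. MTA_Mm-int was at 10287 and 11330.0 CPM in the 2-cell libraries and 871 and 994 CPM in the 4-cell libraries (−3.50), and MT-int at 266 and 329 CPM and then 33.4 and 35.4 CPM (−3.07). ORR1A0-int, the internal part of another MaLR element, fell from 6677 and 5848 CPM to 1306 and 1102 CPM (−2.34), against a log2 fold change of −0.82 in control embryos, and the difference of −1.47 was called (adjusted p = 4.95e-06). Of the 115 LINE-1 families 4 rose and 3 fell, and of 136 DNA transposon families 10 rose and 5 fell. In control embryos 110 of 758 families rose (14.5%) and 31 fell (4.09%). The difference itself was called for 12 of 810 families, 7 higher (0.864%) and 5 lower (0.617%) in the MERVL-KD transition. The 7 were FordPrefect, ERVB4_2-LTR_MM, ERVL-int, MMERVK10D3_I-int, MMERGLN_LTR, MERVL_2A-int and ERVL-B4-int, and the 5 were Tigger23a, L1MdF_I, ORR1A0-int, ORR1A0 and RLTR50B. The calls of MERVL_2A-int, ERVL-B4-int, L1MdF_I, ORR1A0-int and RLTR50B held under every alternative. With 1 of the 12 libraries left out in turn the call of ERVL-int held in only 1 of 12 fits, that of ERVB4_2-LTR_MM in 3, MMERVK10D3_I-int in 5, Tigger23a in 7, FordPrefect in 8, ORR1A0 in 9 and MMERGLN_LTR in 10, and each was lost without several libraries or, for MMERGLN_LTR, without the second MERVL-KD 2-cell or the second MERVL-KD 4-cell library. These names are given because the families were called, so those outside the table's leading families were chosen after their values were seen. Reads with more than 1 best alignment were not counted, so young families with near-identical copies are counted in part, and repeats inside genes share reads with them.

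**Figure D2:**
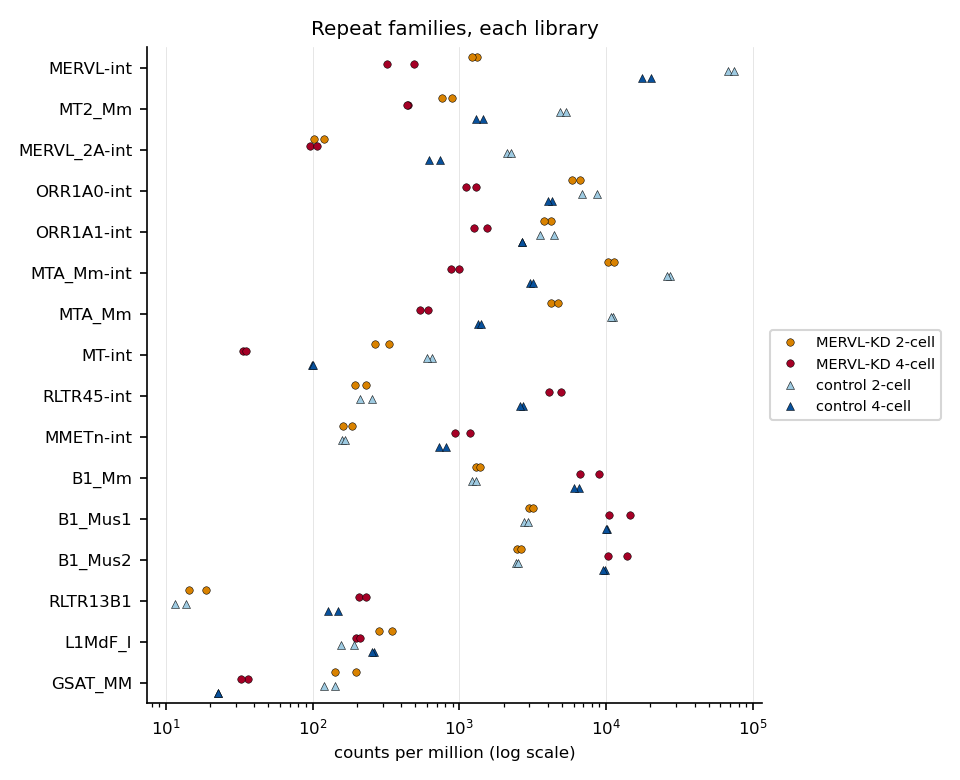
Levels of 16 repeat families on a log axis of CPM, 1 point per library, in MERVL-KD embryos (circles) and control embryos (triangles) at both stages. MERVL-int goes from 1323 and 1227 CPM to 493 and 319 CPM in MERVL-KD embryos and from 67631 and 74719 CPM to 20309 and 17397 CPM in control embryos, and ORR1A0-int ends at 1306 and 1102 CPM in MERVL-KD and 4270.2 and 3999 CPM in control embryos.

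Most genes of the oocyte fell across this step in MERVL-KD embryos. Among the genes of the oocyte coat and its growth factors, 19 of 26 tested fell and 1 rose (median log2 fold change −2.03, all genes −0.06). Bmp15, a growth factor secreted by the oocyte, went from the level given above by a log2 fold change of −3.66, and the oocyte-secreted proteins Oosp1 and Oosp3 fell by 5.19 and 6.15 on the log2 scale. The member that rose was Cd9, the membrane protein of the egg that sperm fusion needs (2.77). Without the second 4-cell library 2 members rose. Gdf9, the partner of Bmp15, fell with a log2 fold change of −1.30, and Zp3, a protein of the zona pellucida, gave −0.58 and was not called.

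Of the subcortical maternal complex and other maternal-effect genes, 19 of 28 fell and 3 rose (median −1.67). Zbed3 and Nlrp5, members of the subcortical complex, gave log2 fold changes of −5.15 and −1.62, and Nlrp4e, of the same gene family as Nlrp5, gave −3.43. The 3 that rose were Khdc3, also of this complex, Smarca4, the ATPase of the BAF remodeler, and Trim28, a corepressor that silences retroviruses. Among genes of RNA storage and decay 22 of 43 fell and 6 rose (median −1.04). Btg4, which brings the deadenylase to maternal RNA, was at 819 and 1062 CPM at the 2-cell stage and 28.9 and 37.9 CPM at the 4-cell stage (−4.78), and Eif4e1b and Ybx2, oocyte proteins that bind stored RNA, gave −4.71 and −3.50. Cnot1, the scaffold of the deadenylase, went the other way, from 311 and 302 CPM to 860.0 and 844 CPM (1.51), and so did Ago2, the Argonaute that cleaves RNA (2.63). Of 24 genes of oocyte meiosis 5 fell and 3 rose, and the kinase Wee2, which holds the oocyte in meiosis, was at 464 and 507 CPM and then 7.46 and 9.75 CPM (−5.78). Mos, the kinase that arrests the egg, gave −0.43 and was not called.

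The genes that mark the 2-cell stage fell as a group. Of 39 tested, 34 fell and 0 rose, with a median log2 fold change of −3.12, and in control embryos 35 of 39 fell (median −3.97). Zfp352, a zinc finger gene of this stage, was at 107 and 131 CPM in the 2-cell libraries and 6.97 and 4.23 CPM in the 4-cell libraries (−4.36). Zscan4a and Zscan4f, of a gene cluster that protects telomeres in embryonic stem cells and whose copies can share reads, gave −6.05 and −5.43. Both 4-cell libraries lay below both 2-cell libraries in these 3 genes, as in 43.2% of all genes tested. The Obox homeobox genes split: 5 of 8 fell, with Obox3 and Obox5 at −5.19 and −4.98, and 3 rose, with Crxos, Obox8 and Obox6 at 2.11, 1.94 and 1.80. These are copies of one family, so reads could be shared among them.

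Among the gene lists, the ribosomal protein genes had the highest median change. Of 79 ribosomal protein genes 77 rose and 0 fell, with a median log2 fold change of 2.60, and their summed level was 4387 and 4331 CPM at the 2-cell stage and 24673 and 26546 CPM at the 4-cell stage of MERVL-KD embryos. In control embryos 76 of 79 rose, with a median of 2.48. Ribosomal protein genes have many processed copies in the genome, so the reads counted for each depend on unique alignment. Among translation initiation and elongation factors 33 of 45 rose and 0 fell (median 1.51), among them Eef1g, a subunit of the factor that reloads the elongation factor, which went from 18.0 and 14.0 CPM to 216 and 274 CPM (3.97), and Eif3d, a subunit of the initiation factor eIF3 (3.40). Of 24 aminoacyl-tRNA synthetases 15 rose and 1 fell (median 1.22). The synthetase Iars gave −0.99, just short of the fold threshold, and was called lower without either 2-cell library or without the first 4-cell library, which made 2 that fell.

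Genes that build ribosomes rose too, 35 of 63, with 1 falling and a median of 1.08. Heatr1, needed for the first precursor of ribosomal RNA, was at 68.1 and 57.5 CPM in the 2-cell libraries and 476 and 505 CPM in the 4-cell libraries (3.00, SE 0.12). Wdr74, a factor of the large subunit, was at 11.1 and 11.2 CPM and then 80.6 and 84.2 CPM (2.92), and Ddx21, a nucleolar helicase, at 119.9 and 143 CPM and then 614 and 682 CPM (2.34). These genes were named for large called changes, so that no 4-cell library overlapped a 2-cell library in them is not a further result. The 4-cell libraries were higher in this way in 39.0% of all genes tested. Npm1, the abundant nucleolar chaperone, went from 368 and 367 CPM to 1484 and 1610.2 CPM (2.11).

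The proteasome, which degrades tagged proteins, changed in the same direction in 32 of 35 tested genes, with 2 falling and a median of 1.83. Psma6, a subunit of its core, went from 19.7 and 17.5 CPM to 157 and 154 CPM (3.10), and Pomp, the factor that assembles the core, from 6.01 and 6.33 CPM to 46.6 and 43.7 CPM (2.91). The 2 that fell were both activators of the core, Psme4, from 1087 and 1102 CPM to 121 and 132 CPM (−3.07), and Psme3 (−1.38). Of 75 nuclear genes of oxidative phosphorylation 59 rose and 2 fell (median 1.70), and without the second 2-cell or the second 4-cell library 1 fell. Ndufs6, a subunit of complex I, and Atp5d, a subunit of the ATP synthase, gave 4.26 and 3.47. Genes of glycolysis, pyruvate use and the citric acid cycle did not move one way, with 11 of 40 rising and 9 falling (median 0.24). These shares were near those of all genes tested, 23.3% rising and 26.4% falling. The hexokinase Hk1 was at 2.80 and 3.00 CPM and then 86.4 and 87.3 CPM (4.94), and the glucose transporter Slc2a1 at 7.93 and 8.42 CPM and then 2.25 and 0.993 CPM (−2.29). Spliceosome genes gave 25 rising and 1 falling of 50 (median 1.02), with Eftud2, the GTPase of the U5 particle, going from 5.32 and 7.32 CPM to 90.6 and 113 CPM. RNA polymerase II and Mediator genes gave 14 rising and 5 falling of 48 (median 0.31), and heat shock genes 16 rising and 4 falling of 28 (median 1.39), among them the constitutive chaperone Hspa8, from 182 and 185 CPM to 1549 and 1535 CPM (3.11).

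**Figure D3:**
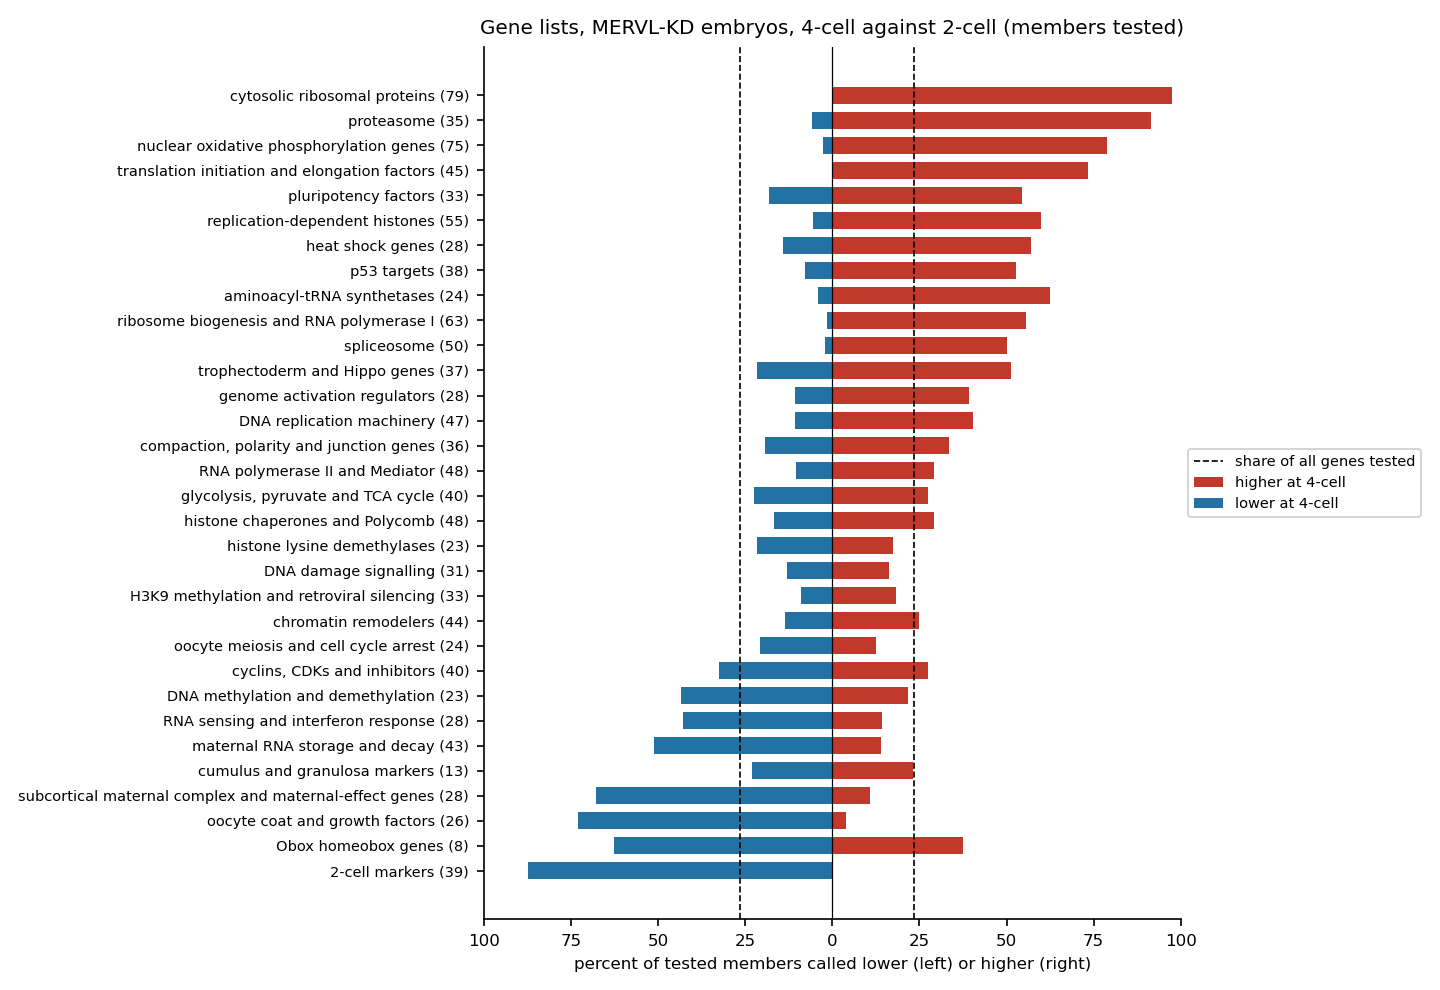
Percent of the tested members of each gene list that fell (bars to the left of 0) or rose (bars to the right) from the 2-cell to the 4-cell stage of MERVL-KD embryos, with the number tested beside the name and dashed lines at the shares of all genes tested (26.4% lower and 23.3% higher). The ribosomal protein genes at the top rose in 77 of 79 members, and the 2-cell markers at the bottom fell in 34 of 39.

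The letters CTTCCG, the core that ETS transcription factors bind, were found in most promoters of several of these lists, among rising lists and others. The promoter sequences are those of RefSeq for GRCm38.p6, 300 bases from 250 before to 50 after the start, and CTTCCG on either strand (CGGAAG on the other) was found in 18.8% of the 27025 genes with such a window, expressed in the embryo or not. It was found in 21 of 29 matched proteasome genes (72.4%), 35 of 56 ribosome biogenesis genes (62.5%), 25 of 44 spliceosome genes (56.8%) and 27 of 63 nuclear genes of oxidative phosphorylation (42.9%), against 4 of 24 maternal-effect genes (16.7%). The share did not follow the direction of a list: it was 14 of 25 in DNA damage signalling genes (56.0%) and 21 of 40 in RNA polymerase II and Mediator genes (52.5%), which mostly were not called, 23 of 38 in DNA replication genes (60.5%) and 5 of 32 in trophectoderm and Hippo genes (15.6%), of which many rose. For all genes that rose, fell or were not called, and for the ribosomal protein genes and 2-cell markers, fewer than 80% had a sequence, so the check is void there. These shares count a gene if the window of any of its listed starts holds the letters. For the 7 named rising genes of ribosome biogenesis and the proteasome with a sequence, only the start with the lowest coordinate was examined. From 100 bases before to 20 after that start, 4 hold the letters and 3 (Psma6, Psma7 and Psmb3) do not. Other starts of these genes were not examined in this way. The 4 are shown with CTTCCG and CGGAAG in capitals to show where the letters fall, and Psma6 as one without them:
Ddx21, chr10:62602279-62602398, minus strand: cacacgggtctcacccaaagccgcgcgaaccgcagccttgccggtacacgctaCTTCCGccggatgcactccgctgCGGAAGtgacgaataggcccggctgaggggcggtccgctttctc
Heatr1, chr13:12395275-12395394, plus strand: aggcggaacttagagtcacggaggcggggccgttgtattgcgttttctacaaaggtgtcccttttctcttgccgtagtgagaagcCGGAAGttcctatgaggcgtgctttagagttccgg
Pomp, chr5:147860528-147860647, plus strand: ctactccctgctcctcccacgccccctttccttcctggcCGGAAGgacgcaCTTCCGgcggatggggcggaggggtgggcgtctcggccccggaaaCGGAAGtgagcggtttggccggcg
Wdr74, chr19:8735739-8735858, plus strand: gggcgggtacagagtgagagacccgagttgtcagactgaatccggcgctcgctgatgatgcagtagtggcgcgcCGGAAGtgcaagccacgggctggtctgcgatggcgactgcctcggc
Psma6, chr12:55384122-55384241, plus strand: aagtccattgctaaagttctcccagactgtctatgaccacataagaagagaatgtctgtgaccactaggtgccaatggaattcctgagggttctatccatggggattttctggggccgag
The letters are a description of these windows and not a site of binding.

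Genes of the first lineages moved in both directions in MERVL-KD embryos. Of 33 pluripotency genes tested 18 rose and 6 fell (median 1.51, in control embryos 0.99). The list also holds Gata6, the factor of the primitive endoderm named above, among those that rose. Nanog, a factor of the inner cell mass, was at 0.665 and 1.33 CPM in the 2-cell libraries and 33.7 and 23.9 CPM in the 4-cell libraries (4.91), Klf2 at 7.08 and 8.59 CPM and then 118 and 146 CPM (4.11), and Tdgf1, the coreceptor of Nodal, at 0.309 and 0.565 CPM and then 53.5 and 58.6 CPM (7.06). In each of the 3 both 4-cell libraries were above both 2-cell libraries, as in 39.0% of all genes tested. Tcl1, an oocyte-expressed coactivator of Akt, fell from 647 and 756 CPM to 6.48 and 12.1 CPM (−6.20), and Sox2 gave −1.93. Pou5f1, the central factor of pluripotency, gave 0.68 and Klf17 −0.30, both under the fold threshold. Among regulators linked to genome activation 11 of 28 rose and 3 fell (median 0.74), with the nuclear receptor Nr5a2 going from 88.0 and 79.1 CPM to 403 and 419.7 CPM (2.34) and Klf5 from 81.8 and 77.5 CPM to 428 and 356 CPM (2.34).

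Of the trophectoderm and Hippo genes 19 of 37 rose and 8 fell (median 1.02). Tead4, the factor that starts the trophectoderm program, was at 19.0 and 17.0 CPM at the 2-cell stage and 126 and 160.0 CPM at the 4-cell stage (3.03, SE 0.15), while its coactivator Yap1 fell from 1052 and 1027 CPM to 193 and 198 CPM (−2.37). Cdx2 and Gata3, factors that act after Tead4, gave −0.09 and 0.68 and were not called, though Gata3 was called without the first 4-cell library. Genes of compaction, polarity and junctions gave 12 rising and 7 falling of 36 (median 0.54). The tight junction claudin Cldn4 went from 1.47 and 1.92 CPM to 64.2 and 67.0 CPM (5.32), whereas the polarity scaffold Pard3 went from 333 and 333 CPM to 46.9 and 40.2 CPM (−2.90) and its partner Pard6b gave −2.78. Cdh1, the cadherin of compaction, gave 0.81 and was not called.

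Histone genes of S phase rose, 33 of 55 tested, with 3 falling and a median of 1.41. In control embryos 24 of 56 rose and 7 fell (median 0.81). The linker histone H1f4 was at 9.74 and 9.89 CPM and then 162 and 180.2 CPM (4.16). Reads of the clustered histone genes can be shared among near-identical copies. DNA replication genes gave 19 rising and 5 falling of 47 (median 0.72). Cyclins, their kinases and inhibitors gave 11 rising and 13 falling of 40 (median −0.20). Among all genes tested the shares were 23.3% rising and 26.4% falling. Cdk4, the kinase of G1 phase, and Cdc25a, a phosphatase that activates cyclin kinases, gave 2.62 and 2.70, and Rb1, which restrains entry into S phase, gave −2.95.

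Of 38 tested targets of p53, the factor that responds to DNA damage and other stress, 20 rose and 3 fell in MERVL-KD embryos (median 1.28), and in control embryos 16 rose and 5 fell (median 0.84). Without the first 4-cell library of MERVL-KD embryos 5 fell. Perp (chr10:18845020-18857073), a membrane protein of desmosomes, was at 0.380 and 0.396 CPM in the 2-cell libraries and 30.1 and 32.8 CPM in the 4-cell libraries of MERVL-KD embryos (6.37, SE 0.25), and at 0.669 and 0.605 and then 3.74 and 2.92 CPM in control embryos (2.47). The stages did not overlap in either arm, and the MERVL-KD 4-cell libraries were the highest of the 8. In MERVL-KD embryos 39.0% of all genes tested had both 4-cell libraries above both 2-cell libraries. Cdkn1a, the inhibitor of cyclin kinases, rose from 29.0 and 26.0 CPM to 102 and 110.5 CPM (1.99), with a control log2 fold change of 2.07. Sfn, the 14-3-3 protein of the G2 checkpoint, was at 32.6 and 30.8 CPM and then 203 and 222 CPM in MERVL-KD embryos and at 8.54 and 12.4 CPM and then 201 and 208 CPM in control embryos, so that the arms were closer at the 4-cell stage than at the 2-cell stage. Rrm2b, a subunit of ribonucleotide reductase, fell from 484 and 452 CPM to 109 and 104 CPM (−2.10). Trp53, which encodes p53, and Mdm2, its ubiquitin ligase, gave −0.71 and 0.27 and were not called. The difference between the transitions was called for 7 of 38 targets, 5 higher and 2 lower in MERVL-KD embryos (background 1.27% and 1.03%), and 3 of the 7 calls, of Perp (3.94), Ppm1d (1.85), a phosphatase that shuts the response off, and Sfn (−1.54), held under every alternative. Ppm1d and Sfn were chosen after their values were seen.

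**Figure D4:**
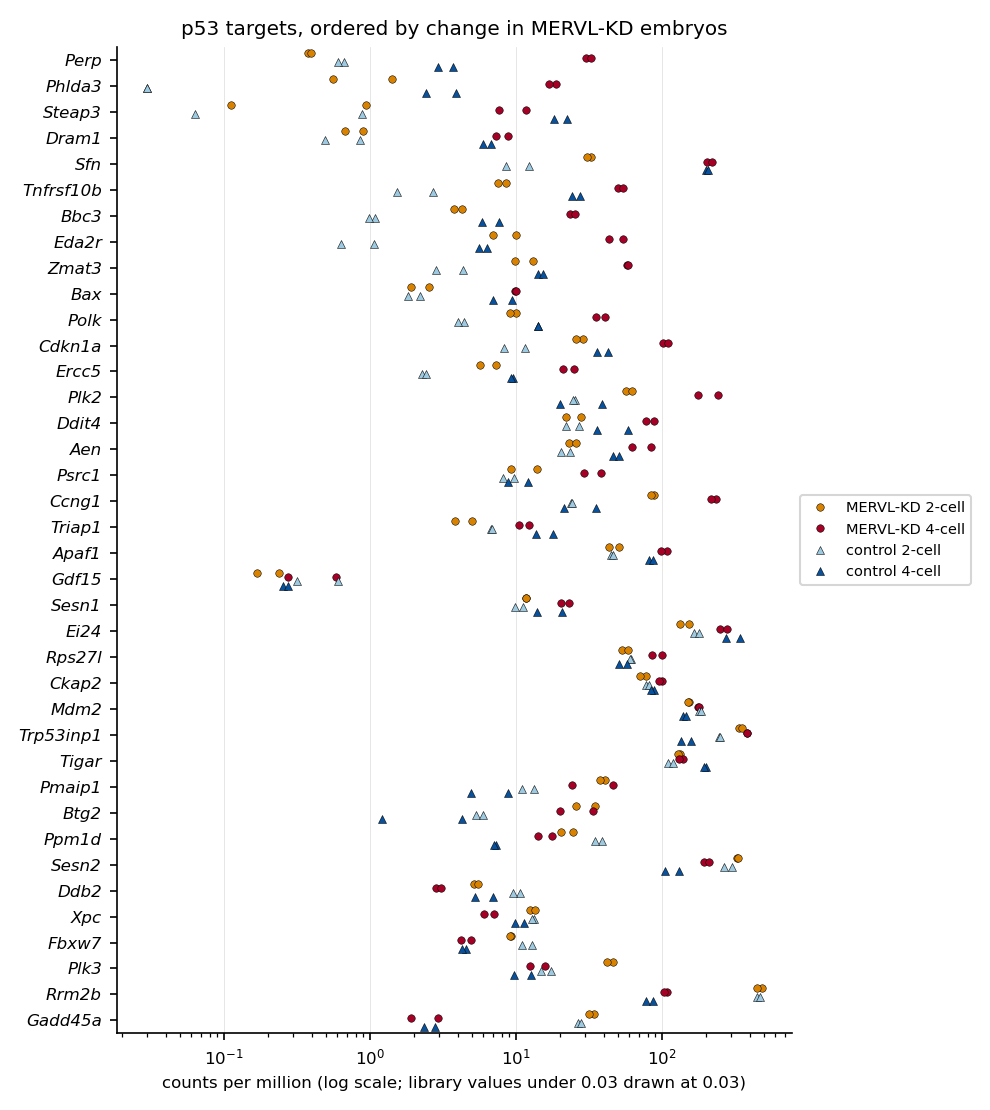
Levels of the 38 tested p53 targets on a log axis of CPM, 1 point per library, in MERVL-KD embryos (circles) and control embryos (triangles) at both stages, ordered by the change in MERVL-KD embryos and with values under 0.03 drawn at 0.03. Perp goes from 0.380 and 0.396 CPM to 30.1 and 32.8 CPM in MERVL-KD embryos and from 0.669 and 0.605 CPM to 3.74 and 2.92 CPM in control embryos.

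DNA damage signalling genes gave 5 rising and 4 falling of 31 (median 0.06, −0.12 with scaling to library size alone). Of 28 tested genes of RNA sensing and the interferon response, 4 rose and 12 fell (median −0.98), in control embryos 3 and 7. Where at least 10 counts were asked of every library 6 fell, since fewer members were tested. The members named were low: Ifitm2, a membrane protein induced by interferon, was at 0.0950 and 0.113 CPM and then 2.74 and 3.88 CPM (4.99), and Isg15, a ubiquitin-like protein, gave −4.25 from 1.59 and 1.81 CPM at the 2-cell stage.

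The lists of genes that write, read or erase chromatin marks held members that rose and members that fell. Of all genes tested 23.3% rose and 26.4% fell, so a mixed list is not by itself a trait of these genes. Of DNA methylation genes 5 of 23 rose and 10 fell (median −0.29), and 3 rose without the first 2-cell library. Tet3, the oxidase of the paternal genome in the zygote, fell from 432 and 444 CPM to 88.3 and 69.0 CPM (−2.44), and Dnmt1, the maintenance methyltransferase, gave −0.29 and was not called. Of genes of H3K9 methylation and retroviral silencing 6 of 33 rose and 3 fell (median −0.04), with 6 falling after scaling to library size alone. Ehmt2, a methyltransferase of H3K9, went from 10.1 and 10.1 CPM to 110.3 and 105 CPM (3.46), and Trim28 from 167 and 149.5 CPM to 391 and 354 CPM (1.27). Histone lysine demethylases gave 4 rising and 5 falling of 23, and Kdm5b, which removes H3K4 methylation, gave 0.70 and was not called. Histone chaperone and Polycomb genes gave 14 rising and 8 falling of 48, with the Polycomb protein Phf1 going from 339.5 and 395 CPM to 14.0 and 13.9 CPM (−4.68) and the ubiquitin ligase Ring1 giving 3.14. Chromatin remodelers gave 11 rising and 6 falling of 44, and the ATPases of BAF were opposed, Smarca4 at 1.75 and Smarca2 at −3.22.

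Set beside control embryos, the transition of the MERVL-KD embryos collected at these stages covered much the same range. In control embryos 5066 of 20272 genes rose (25.0%) and 5779 fell (28.5%). Across the 19373 genes tested in both, the log2 fold changes had SDs of 2.10 in MERVL-KD and 2.17 in control embryos and a Pearson r of 0.867, a description across genes, which are not independent. No library was shared between these arms. Of the genes that rose in MERVL-KD embryos 81.0% also rose in control embryos, and of those that rose in control embryos 79.1% rose in MERVL-KD embryos. The shares were 83.8% and 80.1% for genes that fell, and 2 genes rose in MERVL-KD and fell in control embryos while 6 did the reverse. The difference between the log2 fold changes was within 1 in 77.0% of these genes.

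The difference itself was tested over all 12 RNA libraries. Of 24040 genes, 305 had a higher log2 fold change in the MERVL-KD transition (1.27%) and 247 a lower one (1.03%), 2.30% in all. The split depended on the scaling: with library size alone 139 genes were higher and 604 lower, so that 18.7% in place of 55.3% of the calls were higher. With a library left out in turn 193 to 364 were higher and 147 to 383 lower. The counts moved by more than 1.5 times without the second control 2-cell library (193 higher), the first MERVL-KD 2-cell library (195 higher and 151 lower), the first control 2-cell library (147 lower) and the second MERVL-KD 8-cell library (383 lower). The 305 were of several kinds, with 76 genes that fell in both arms, 80 that fell in control embryos alone, 70 that rose in MERVL-KD embryos alone and 36 that rose in both. Of the 247, 71 rose in control embryos alone, 64 fell in both arms, 49 rose in both and 44 fell in MERVL-KD embryos alone.

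Epm2a, the phosphatase of glycogen known as laforin, rose in MERVL-KD embryos from 4.16 and 5.37 CPM to 24.1 and 23.2 CPM, and was at 87.5 and 94.0 CPM and then 81.3 and 76.3 CPM in control embryos, a difference of 2.52 on the log2 scale (SE 0.19, adjusted p = 3.81e-07, edgeR). Its MERVL-KD libraries did not overlap between the stages, as in 39.0% of all genes tested with the 4-cell libraries higher. They stayed below all 4 control libraries at both stages. Esco2, which acetylates cohesin in S phase, gave log2 fold changes of 1.97 in MERVL-KD and 0.50 in control embryos (difference 1.52), and Gtse1, a protein of mitotic microtubules that binds p53, gave 0.69 and −1.21 (difference 1.95). Endod1, a predicted nuclease, gave 1.87 and −0.80 (difference 2.72). Rab7, the GTPase of late endosomes, gave 1.06 and −0.60 (difference 1.71), and its own call in MERVL-KD embryos was lost without the first 2-cell library, among other settings, with values of 0.86 to 0.99.

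In the other direction, Sin3a, the scaffold of a histone deacetylase complex, fell from 701 and 681 CPM to 54.1 and 41.0 CPM in MERVL-KD embryos (−3.82) and from 874 and 849 CPM to 224 and 257 CPM in control embryos (−1.76), a difference of −2.02 (SE 0.16, adjusted p = 3.81e-07). Cox10, which makes the heme of cytochrome oxidase, gave −4.22 and −1.96 (difference −2.21). Prpf18, a splicing factor, was at 47.3 and 44.9 CPM and then 12.3 and 8.90 CPM in MERVL-KD embryos and at 65.3 and 71.5 CPM and then 88.6 and 82.3 CPM in control embryos (difference −2.44), with the 4-cell libraries the lower ones in the first arm and the higher ones in the second. Csnk2a1, the catalytic subunit of casein kinase 2, was at 152 and 153 CPM and then 37.0 and 36.1 CPM in MERVL-KD embryos and at 217 and 211 CPM and then 161 and 158 CPM in control embryos (difference −1.64). The predicted genes 2810004N23Rik and Gm7240 gave differences of −2.45 and −3.13. All of the genes named in this paragraph and Epm2a, Esco2, Gtse1, Endod1 and Rab7 stayed called for the difference under every alternative.

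**Figure D5:**
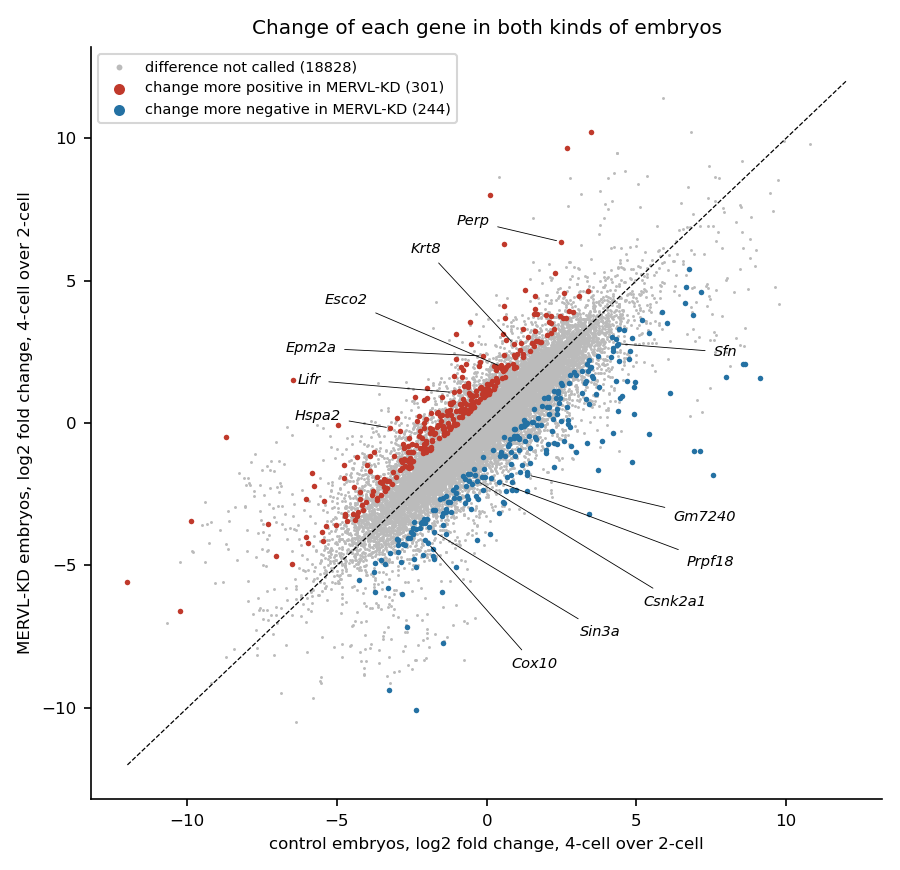
Log2 fold change of each gene from the 2-cell to the 4-cell stage in control embryos (horizontal axis) and MERVL-KD embryos (vertical axis), 1 point per gene, with the genes called for the difference between the transitions in red (301, more positive in MERVL-KD embryos) and blue (244, more negative) and a dashed line of equal change. Most genes follow the diagonal (r 0.867 over 19373 genes), and Perp (2.47 and 6.37) and Epm2a (−0.12 and 2.35) lie above it and Sin3a (−1.76 and −3.82) below it.

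List members whose transition differed under every alternative were few, and were chosen after their values were seen. Among trophectoderm genes, the keratin Krt8 gave 2.76 in MERVL-KD and 0.92 in control embryos (difference 1.89), and Atp1b1, a subunit of the sodium pump, −0.35 and −1.88 (1.58). The receptors of LIF signalling moved apart, Lifr with 1.07 and −1.11 (2.23) and its partner Il6st with −3.38 and −2.10 (−1.24). The histone genes H2bc9 and H2bc13 gave differences of 1.78 and 1.48, the only ones of 58 tested S phase histone genes to hold under every alternative. In all, 7 of the 58 were called higher and 0 lower (background 1.27% and 1.03%), and H1f5, H3c8, H3c11, H4f16 and Hist1h2bp lost the call under 1 to 11 alternatives, among them library size alone in each and the first control 4-cell library left out for H3c8, H3c11 and Hist1h2bp. Ccne2, the cyclin of entry into S phase, gave −0.89 and −2.22 (1.38), the heterochromatin protein gene Cbx1 0.06 and −1.53 (1.64), the chaperone Hspa2 −0.18 and −3.21 (3.08), and the oocyte ubiquitin hydrolase Uchl1 −2.10 and −3.49 (1.43). Tead4 gave 3.03 and 4.18, a difference of −1.11 that was lost without the first control 2-cell library or the first MERVL-KD 4-cell library, with values down to −0.91. Of 79 ribosomal protein genes, 39 2-cell markers and 35 proteasome genes, 0, 3 and 0 had a higher log2 fold change in MERVL-KD embryos. A lower one was called in 0, 0 and 0 (background 1.27% and 1.03%). The median difference was 0.63 on the log2 scale for the 2-cell markers and 0.05 for all genes. It was 0.20 for the ribosomal protein genes and 0.13 for the proteasome genes. The 3 2-cell markers were Zscan4b, Zfp750 and Gm5662, each of which fell less in MERVL-KD embryos, and their calls held in 5, 8 and 3 of 12 fits with a library left out. All of the 3 were lost without the second control 2-cell library or the first MERVL-KD 2-cell library, and Zscan4b is one of several copies that can share reads.

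The ASOs' own target letters lay in introns of some of the genes with a lower log2 fold change in MERVL-KD than in control embryos. A site of a MERVL ASO, with at most 1 mismatch and in the direction that the gene's RNA carries, lay within 18 of the 247 genes with a lower difference (7.29%), in introns in all 18, against 146 of the 24040 genes tested (0.607%) and 2 of the 305 genes with a higher difference (0.656%). Sites in the opposite direction, which the gene's RNA does not carry, lay in 3 of the 247 (1.21%) and in 0.562% of all genes tested. The genes with a lower difference spanned a median of 16746 bases and all genes 13538. Of the 18, Arl15 spanned 362957 bases, while the predicted genes Gm50210, Gm18204, Gm28940, Gm13335 and Gm9519 spanned 5092 to 12867. Whether these short predicted genes are transcripts of the MERVL copies themselves was not tested. Csnk2a1 (chr2:152226839-152281852) and 2810004N23Rik (chr8:124836945-124863120) held 3 such sites each, Gm7240 (chr13:61804257-61861675) 2 and Prpf18 (chr2:4622058-4652113) 1. Of the genes chosen for these sites after their values were seen, Mcm9, a helicase of DNA repair, gave −3.16 in MERVL-KD and −1.45 in control embryos, and Tubgcp2, a subunit of the gamma-tubulin complex, −2.65 and −0.62. In the MERVL-KD transition as a whole such sites lay in 90 of the 5675 genes that fell (1.59%), in 4 of the 5008 that rose (0.0799%) and in 135 of all 21519 (0.627%), and sites in the opposite direction in 61 (1.07%), 12 (0.240%) and 0.599%. The genes that fell had the longer median span, 20835 against 12459 bases. Such sites were not counted for the genes that fell or rose in the control transition, in which MERVL RNA fell too. These are counts of letters in the reference genome with no test, and whether the ASOs acted on these RNAs or the MERVL copies in them did was not tested.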

How the data were processed

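Total RNA of 30 pooled embryos per library was made into stranded SMART-seq libraries and sequenced as paired ends. The authors aligned the reads to GRCm38 with STAR (version 2.5.3a, unique alignments) and counted them with featureCounts per GENCODE vM25 gene and RepeatMasker family, and the deposited values are raw read counts. The strand setting of the counting is not given in the sources used here, so overlapping and antisense genes cannot be told apart. Of the genes with 1 to 50 counts, 71.8% to 74.7% had an even count, so a setting with halved counts was tried.

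The 4-cell and 2-cell libraries of each arm were compared with edgeR (version 4.0.16, R 4.3.3), with its filter on low counts, TMM scaling and the robust quasi-likelihood test, and Benjamini-Hochberg adjustment over genes and repeat families together. The difference between the transitions, MERVL-KD minus control, was a contrast over all 12 RNA libraries. Fold changes of the arms come from separate fits. CPM were scaled with TMM factors over the 12 libraries. The 2 libraries per group are biological replicates in the study's methods, and nothing ties the replicate numbers of both stages together. Replicates differed by more than sampling noise (chi-square per degree of freedom 13.8 between the MERVL-KD 2-cell libraries and 19.3 between the MERVL-KD 4-cell libraries).

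The members and the gene lists were chosen with earlier results of these data known. Genes were named by rule: the 8 in each direction with the smallest adjusted p and no predicted symbol, the 6 genes or families in each direction for the difference, up to 4 called members per list and direction, 5 repeat families in each direction with MERVL-int and MT2_Mm, landmark genes, and the 5 most abundant genes of each stage. The gene lists were compiled by hand from textbook roles, and the report gives the count of each and a few members. Gene kinds came from GENCODE vM21, which matched 96.3% of gene rows. ASO sites were searched in GRCm38 with at most 1 mismatch, and the count of sites within genes was added after the differences were seen.

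On simulated counts with 200 changed genes, the MERVL-KD step recovered 145 among 22281 rows with 10 false calls (62 of 90 at a log2 fold change of 1.5 and 83 of 110 at 2), and the step for the difference recovered 127 among 24850 rows with 9 false calls. The changed genes were drawn from rows above a minimum mean count, and all other rows had no change between groups. In the MERVL-KD data 49.6% of genes were called, so these rates cannot be carried over to the real comparison. Alternatives were DESeq2 (version 1.42.0), its size factors, library size alone, TMM on gene rows, other filters, no fold threshold, a non-robust fit, all libraries in one fit, dominant rows left out, halved counts, a replicate block and each library left out. The ATAC-seq samples were not used here.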

Additional observations from a re-analysis of the deposited data

Results flagged for a closer look

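The following 25 results are listed because the change from the 2-cell to the 4-cell stage differed between MERVL-KD and control embryos in a test of the difference itself (edgeR, 12 libraries, 2 per group); each value is the MERVL-KD minus the control log2 fold change. Among genes named for the difference, it was 2.52 for Epm2a, 1.52 for Esco2, 1.71 for Rab7, 1.95 for Gtse1, 2.72 for Endod1, and −2.02 for Sin3a, −2.45 for 2810004N23Rik, −2.44 for Prpf18, −1.64 for Csnk2a1, −2.21 for Cox10 and −3.13 for Gm7240. Among repeat families it was 1.56 for MERVL_2A-int, −1.47 for ORR1A0-int and −1.04 for ORR1A0. Among the genes that fell most clearly in MERVL-KD embryos it was −1.19 for Omt2b, −1.22 for Spry4 and −1.39 for Gli3. Among list members it was 3.94 for Perp, 2.20 for Cdkn2a, 1.16 for Ccng1, 1.12 for H4f16, 1.41 for Dnmt3c, −1.24 for Il6st, −1.13 for Plk3 and −1.11 for Tead4.

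Several of these calls rest on single libraries. Ccng1 was lost without either control 2-cell library, the first control 4-cell library or the second MERVL-KD 2-cell library, with values of 0.83 to 1.58. Plk3 was lost without the first control 2-cell, the second control 4-cell or the first MERVL-KD 2-cell library (−1.31 to −0.92), Tead4 without the first control 2-cell or the first MERVL-KD 4-cell library (−1.41 to −0.91), and ORR1A0 without the first control 2-cell, the first control 4-cell or the first MERVL-KD 2-cell library (−1.18 to −0.90).

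With 1 of the 12 libraries left out in turn, the call of Cdkn2a held in 5 of 12 fits (1.81 to 2.44, lost without either control library of the 2-cell or 4-cell stage, either MERVL-KD 2-cell library or the second MERVL-KD 4-cell library), that of Dnmt3c in 3 (1.22 to 1.60, held only without the first control 2-cell library or either MERVL-KD 8-cell library), that of Gli3 in 2 (−1.51 to −1.31, held only without either MERVL-KD 8-cell library) and that of H4f16 in 7 (0.96 to 1.28, lost without the second control 4-cell library, either control 8-cell library, the first MERVL-KD 2-cell or the second MERVL-KD 8-cell library).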

How the results depend on the processing

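Of 4554 recomputed values of 299 named results, 4479 kept their direction and call, 55 lost the call, 13 gained it and 7 turned. Of 71 differences between the transitions named by rule, called in a list or called as repeat families, 31 kept their call under every alternative and 32 with each library left out in turn. Those that turned were near 0: Cdx2 was 0.24 without the second MERVL-KD 4-cell library (lowest with a library left out −0.58), CT010467.1 was −0.0027 with all 12 libraries in one fit, −0.050 with at least 10 counts in every library, −0.14 with library size alone and −0.049 without the first MERVL-KD 2-cell library (highest 0.084), and Gm10925 was 0.0016 without the second 2-cell and 0.10 without the first 4-cell library (lowest −0.44). Genes with a higher difference numbered 474 with DESeq2, 139 with library size alone and 604 without the fold threshold, and those with a lower one 604 with library size alone and 395 without the fold threshold. Repeat families that rose numbered 32 with library size alone and 160 without the fold threshold, and 95 fell without it. The causes were not tested, other than the wider rule where no fold was asked. When single libraries were left out, the MERVL-KD transition had 4552 to 4960 genes higher and 4953 to 6002 lower, 40 to 64 repeat families higher and 33 to 55 lower, and MERVL-int between −1.97 and −1.35, the control transition 4384 to 4804 and 5064 to 6187 genes, and the difference 193 to 364 higher and 147 to 383 lower. A group left with 1 library was assumed to vary like the others.

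The replicate numbers did not pair the libraries (correlation of same-numbered deviations 0.0137 in MERVL-KD and 0.0159 in control embryos). With the replicate number as a block 4904 genes rose and 5529 fell in MERVL-KD embryos, 4791 and 5567 in control embryos, 45 repeat families rose and 41 fell, MERVL-int was at −1.64, and the difference over the 8 libraries of these stages had 403 genes higher and 231 lower.

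Depth and number limit these data: 2 libraries per group give few degrees of freedom, genes at 3 counts or fewer at one stage have no measured fold, and multicopy genes and repeats are counted from unique alignments alone.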
